A study of Mus musculus with 15 samples.

Results

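The genes described here are 37 interferon response genes, listed by symbol: sensors of foreign nucleic acid, the transcription factors that relay interferon signals, antiviral effectors, the ISG15 system, interferon-inducible GTPases, antigen processing genes and chemokines. A member was measured where an array probe set was annotated to its symbol alone, and where several were, the brightest on average was used. On that rule 34 of the 37 were measured, among 18193 genes in all. Isg15 and Gbp4 shared their probe sets with another symbol, and no probe set carried the symbol Ifi44, so these 3 are not analysed here.

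Expression was measured on 15 Affymetrix Mouse430_2 arrays of colon RNA from male mice aged 3 months, on a hybrid background of C57BL/6 and 129, with age and sex matched littermates as controls. The groups, of 3 arrays each, were wild type (APC+/+/Olfm4+/+), APC mutant (APC+/-/OLFM4(+/+)), Olfm4 mutant (APC+/+/Olfm4-/-), and 2 tissues of double mutants (APC+/-/Olfm4-/-), namely normal tissue adjacent to tumour and tumour. All groups share the background and the sex, and both double mutant tissues share their genotype. Apc is the scaffold that restrains Wnt signalling by marking beta-catenin for breakdown, Olfm4 is a secreted glycoprotein of crypts and neutrophils, and the comparisons ask how the mutations, alone and together, and tumour formation alter colon expression.

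The titles limit what the replicates stand for. The double mutant titles carry 2 animal numbers: animal 1 gave replicate 1 of both tissues, and animal 2 gave 2 of the 3 arrays in each. Olfm4 mutant replicate 3 has in its title a number pieced together from those of replicates 1 and 2, and its array correlated with replicates 1 and 2 at 0.995 and 0.992 over all genes, against 0.987 between those. The p-values given below rest only on the spread between such samples, and some of that spread may be technical. The labels do not describe the APC allele. The samples are bulk tissue, in which fewer cells of a type and less RNA per cell cannot be told apart. Marker genes of smooth muscle, at a mean log2 level of 11.78 or more outside the tumours, and of epithelium, at 12.71 or more throughout, show that the colon wall was sampled in every group outside the tumours.

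Interferons are secreted signals that cells release when they detect viral or microbial nucleic acid, or, in the case of interferon gamma, that T and NK cells release on activation. Type I interferon acts through Ifnar1 and Ifnar2 and a complex with Stat2 and Irf9 that binds the interferon-stimulated response element, while interferon gamma acts through Ifngr1 and Ifngr2 and binds gamma activated sequences. In the gut a low level of this program is kept up by the microbiota, and chemokines such as Cxcl9 and Cxcl10 draw T cells into inflamed or tumour tissue.

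Promoter sequences are given for members on which the results turn. RefSeq windows of 250 bases before and 50 after the annotated start (assembly GRCm38.p6) were found for 27 of the 37 members, 25 of them measured. Both strands were searched for the core of the response element, GAAA followed by any 2 bases and GAAA, which the other strand reads as TTTC, any 2 bases and TTTC. The gamma activated sequence, TTC followed by any 3 bases and GAA, reads the same way on both strands. The response element core was present in 13 of the 25 measured members (52%), against 3.99% of 27025 genes with a window and 3.63% of 14452 such genes on the array. The gamma activated sequence was present in 7 of 25 (28%), against 9.55% of all genes with a window, and Oas1a, Bst2 and Igtp held both. A match is a string of letters and does not show that a factor binds there. The 6 sequences that follow are the 250 bases before the start, 5′ to 3′ on the strand of the gene, with matches in capitals. Ifit1 and Ifit3 each hold a pair of matches of one kind. Oas1a and Bst2 hold overlapping matches of the response element core as well as a gamma activated sequence, which in Bst2 runs into the other motif. Cxcl10 holds 1 match far from the start, and Tap1 holds none.
Ifit1 (chr19:34640639-34640888, plus strand): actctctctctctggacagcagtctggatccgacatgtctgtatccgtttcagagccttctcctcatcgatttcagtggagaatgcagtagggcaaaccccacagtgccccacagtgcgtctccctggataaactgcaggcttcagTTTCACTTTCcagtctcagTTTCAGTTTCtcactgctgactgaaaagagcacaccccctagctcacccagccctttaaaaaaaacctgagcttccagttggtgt
Ifit3 (chr19:34583279-34583528, plus strand): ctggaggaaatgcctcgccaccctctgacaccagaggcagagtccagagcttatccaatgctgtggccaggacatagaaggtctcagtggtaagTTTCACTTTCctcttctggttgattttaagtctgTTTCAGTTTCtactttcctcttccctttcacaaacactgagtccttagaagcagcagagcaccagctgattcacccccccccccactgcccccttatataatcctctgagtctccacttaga
Oas1a (chr5:120907526-120907775, minus strand): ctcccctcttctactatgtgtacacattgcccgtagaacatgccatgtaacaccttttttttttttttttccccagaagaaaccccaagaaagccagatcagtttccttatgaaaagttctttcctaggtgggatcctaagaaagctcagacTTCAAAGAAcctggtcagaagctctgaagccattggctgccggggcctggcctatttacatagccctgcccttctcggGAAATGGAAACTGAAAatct
Bst2 (chr8:71537473-71537722, minus strand): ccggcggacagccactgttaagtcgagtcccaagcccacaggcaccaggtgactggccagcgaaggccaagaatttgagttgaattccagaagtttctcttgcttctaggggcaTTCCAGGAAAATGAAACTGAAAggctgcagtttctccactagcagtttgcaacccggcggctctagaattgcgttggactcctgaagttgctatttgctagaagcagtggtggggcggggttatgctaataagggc
Cxcl10 (chr5:92348890-92349139, minus strand): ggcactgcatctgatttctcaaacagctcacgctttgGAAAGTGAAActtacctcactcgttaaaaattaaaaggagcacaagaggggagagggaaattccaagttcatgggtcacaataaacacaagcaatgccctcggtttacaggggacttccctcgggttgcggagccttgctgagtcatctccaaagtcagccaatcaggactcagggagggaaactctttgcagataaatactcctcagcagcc
Tap1 (chr17:34187306-34187555, plus strand): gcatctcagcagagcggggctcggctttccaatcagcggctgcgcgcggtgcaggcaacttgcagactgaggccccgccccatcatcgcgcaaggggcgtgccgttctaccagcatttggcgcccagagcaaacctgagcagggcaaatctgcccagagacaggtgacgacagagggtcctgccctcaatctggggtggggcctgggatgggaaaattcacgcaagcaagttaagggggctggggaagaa

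The cytoplasmic RNA sensors Ddx58 (RIG-I) and Ifih1 (MDA5) hold their match after the start, 2 and 32 bases downstream, and are shown because their levels moved in opposite directions in tumours. Each stretch is 30 bases long, read on the strand of the gene.
Ddx58 (chr4:40239804-40239833, minus strand): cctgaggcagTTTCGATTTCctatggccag
Ifih1 (chr2:62646206-62646235, minus strand): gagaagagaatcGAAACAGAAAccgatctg

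Taken over these genes together, the widest variation lay among the 3 wild type arrays and not between genotypes. Exceptions were Oasl1 (range of group means 2.42, wild type range 1.95), Bst2 (2.14 and 1.76), Ddx58 (1.86 and 1.71), Xaf1 (1.75 and 1.12) and Irf1 (0.65 and 0.31). Xaf1 was an exception by its kept probe set only. By its other probe set, described below, wild type held both the lowest and the highest of the 15 values (4.14 and 11.99). The mean of the 34 genes, each centred on its own mean over the 15 arrays, was -0.84, 1.69 and 0.33 (log2) on wild type arrays 1, 2 and 3. Of the 34 genes 33 were highest on wild type array 2, where 33.7% of all genes were highest, and 30 were lowest on wild type array 1, where 38.7% of all genes were lowest. The range over the wild type arrays exceeded 2 on the log2 scale for 21 of 34 members, against 2.86% of all genes. The median SD within the group was 1.19 for the members and 0.222 for all genes.

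**Figure D1:**
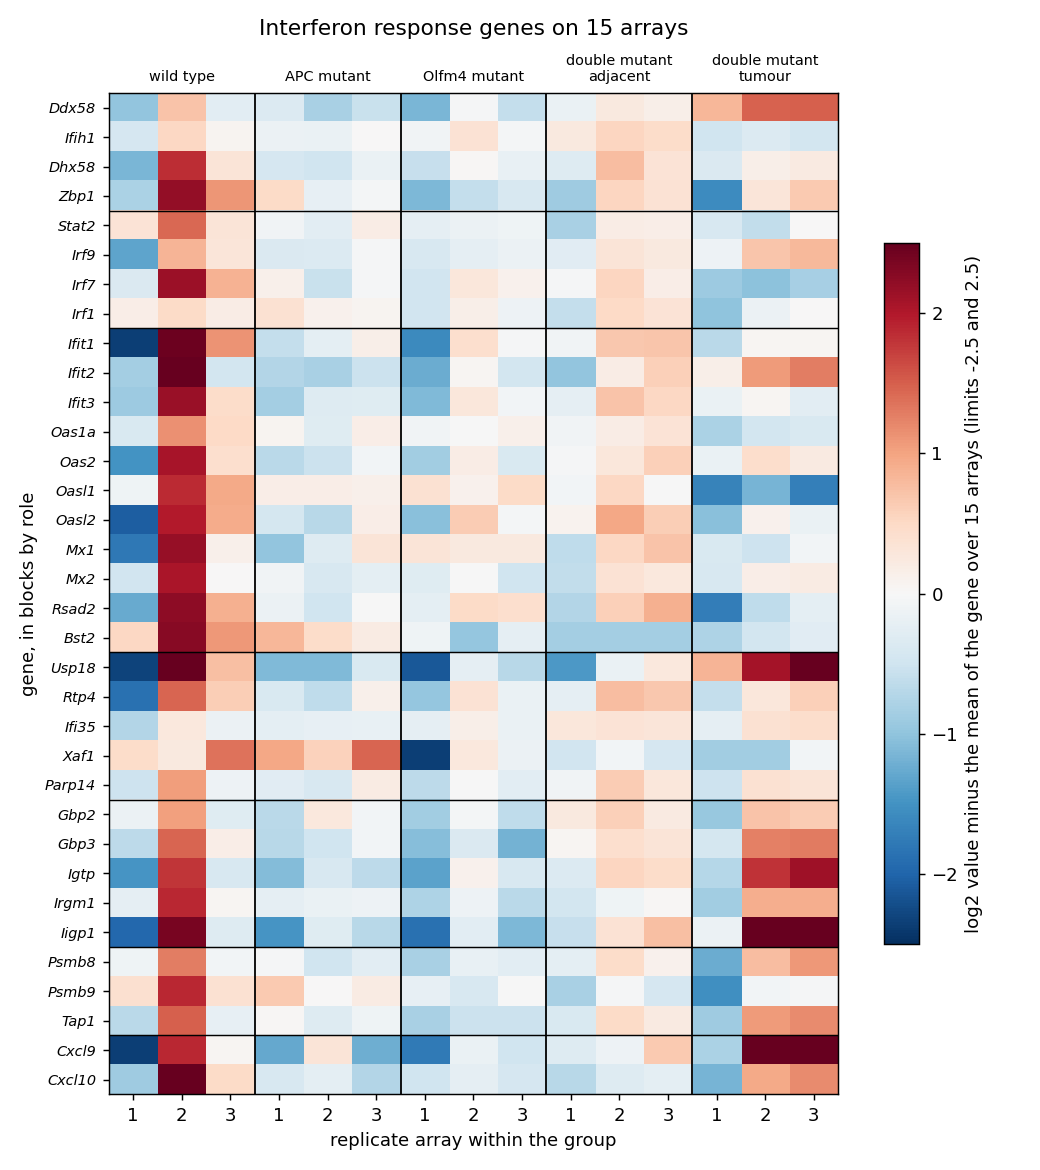
Each cell is the log2 value of a gene on an array minus the mean of that gene over the 15 arrays (red above, blue below), with 34 genes in blocks by role and 3 replicate arrays per group. Wild type array 2 is the highest of its group for 33 of the 34 genes, and replicate 1 is the lowest of the adjacent group for 33 and of the tumour group for 29.

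Taken over the members together, the other groups were tighter, but n counts arrays and the spreads are not of like samples. In each double mutant tissue 2 of the 3 arrays came from animal 2, and Olfm4 mutant replicate 3 may not be a separate animal. The wild type titles carry a different animal number for each array. The mean of the members was -0.22 ± 0.116 (SD, n = 3) for APC mutants, -0.36 ± 0.396 for Olfm4 mutants, 0.09 ± 0.396 for adjacent tissue and 0.11 ± 0.651 for tumours, against 0.39 ± 1.27 for wild type. All of these group means lay inside the range of the wild type arrays. The median SD of the members was 0.31 for APC mutants, 0.385 for Olfm4 mutants, 0.414 for adjacent tissue and 0.529 for tumours, and that of all genes lay between 0.16 and 0.188 in these 4 groups. In tumours 8 members still had a range over 2, against 1.04% of all genes. Some members spread more there than in wild type, such as Psmb8 (SD 1.25 against 0.789) and Gbp2 (0.939 against 0.723).

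The span over the wild type arrays differed widely from member to member. Usp18, the protease that removes ISG15 and dampens receptor signalling, stood at 6.79, 11.84 and 9.85 on wild type arrays 1, 2 and 3, a 33.0-fold span. Ifit1, which binds foreign RNA caps, stood at 7.93, 12.73 and 11.41, a 27.9-fold span. In both genes array 1 was the low one and array 2 the high one, and the arrays of all other groups lay between them, except tumour array 3 for Usp18. Iigp1, a GTPase that attacks the vacuoles of intracellular parasites, spanned 20.2-fold (6.78, 11.12 and 8.43). Cxcl9 and Cxcl10, ligands of the chemokine receptor Cxcr3 of T cells, spanned 19.1-fold and 17.4-fold. The range was 16.4-fold for Oasl2, 15.5-fold for Mx1, 12.1-fold for Ifit2 and 11.8-fold for Oas2, all antiviral effectors, but 2.87-fold for Oas1a, 3.38-fold for Bst2 and 3.87-fold for Oasl1, which are effectors too. At the other end stood Irf1, the factor induced by interferon gamma, at 10.64, 10.96 and 10.66, a 1.24-fold span. Ifih1 and Ifi35 spanned 1.90-fold and 1.99-fold.

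**Figure D2:**
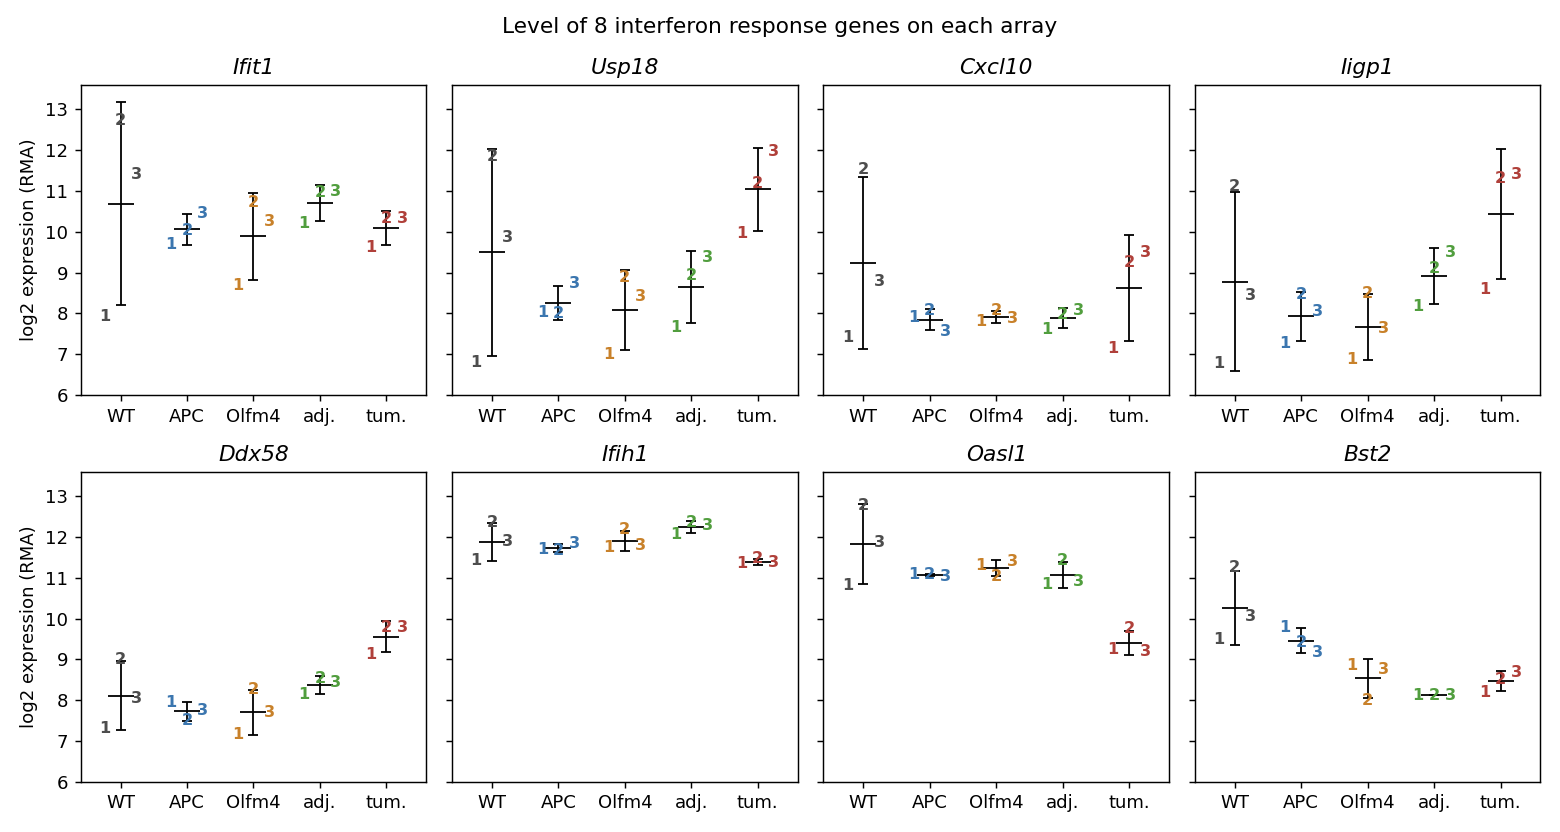
Log2 level (y axis) of 8 genes on each array, with the numerals 1, 2 and 3 for the replicate arrays and a bar and whiskers for the group mean ± SD (n = 3). WT is wild type, adj. adjacent and tum. tumour. For Ifit1, Usp18, Cxcl10 and Iigp1 wild type arrays 1 and 2 lie far apart, while the tumour arrays of Ddx58, Ifih1 and Oasl1 lie apart from the adjacent arrays.

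Some measures moved with this spread, and their part in it was not tested. The mean level of 13 T and NK cell markers was 6.33, 7.70 and 7.29 on wild type arrays 1, 2 and 3, and that of Ifng, the gene of interferon gamma, 4.57, 5.94 and 4.69. Smooth muscle markers stood highest on array 1, between 11.9 and 13.24 in the group. The 13 macrophage and dendritic cell markers lay between 9.36 and 9.53. The difference between 3-prime and 5-prime probe sets of 4 added bacterial RNAs, a measure of how evenly the labelled RNA was made, was 1.96, 2.08 and 2.12 on these arrays, whereas the group means ran from 2.05 in wild type to 4.98 in tumour. Arrays were numbered in blocks by group, so array order and group cannot be told apart.

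Members followed each other to different degrees. Over the 15 arrays the Pearson correlation with the mean of the other members was 0.943 for Dhx58, a regulator of the RNA sensors, 0.925 for Oas2, 0.914 for Parp14, 0.907 for Mx2 and 0.900 for Cxcl10. It was lowest for Xaf1 by its kept probe set (0.186), Oasl1 (0.301) and Bst2 (0.388). These arrays share group structure, so the values only describe. Outside the members and the other lists used here, the genes most like the mean of the members were Ube2l6 (0.908), the conjugating enzyme of the ISG15 system, Mitd1 (0.88), Ddx60 (0.87), Rhd (0.859) and Phf11d (0.845). Ddx60 stood at 5.50, 8.93 and 8.19 and Phf11d at 6.99, 11.01 and 9.01 on wild type arrays 1, 2 and 3, the same order of arrays as for the members.

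Xaf1, a pro-apoptotic gene induced by interferon, was measured by a pair of probe sets that went apart (r = -0.29). The brighter one, used throughout, lay between 7.16 and 10.97. The other stood at 4.14, 11.99 and 9.91 on wild type arrays 1, 2 and 3, and at 9.63, 5.01 and 9.09 in Olfm4 mutants. In double mutants it stood at 4.61, 9.85 and 9.95 in adjacent tissue and at 4.64, 10.37 and 10.51 in tumour. It was thus low in both tissues of animal 1 and high in both tissues of animal 2. In APC mutants it was low on all 3 arrays (4.68, 4.28 and 4.68). Of the 14 members with more than 1 probe set, Ddx58, Iigp1, Cxcl9 and Zbp1 had a further one that followed the kept one at 0.94 or above, and the dim further ones of Tap1 and Dhx58 did so at 0.61 or below. Those of Ifi35, with means of 9.35 and 9.13, did so at 0.41 and 0.58.

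Tumours were compared with adjacent tissue of the same animals. Ddx58 rose, and Oasl1 and Ifih1 fell, while the other 31 members did not pass an adjusted p of 0.05 (limma, Benjamini-Hochberg over all genes). That is 1 of 34 higher, where 14.3% of all genes were called higher, and 2 of 34 lower, where 13.8% were. The median difference of the members was -0.15 and that of all genes 0.00. The arrays of both tissues did not overlap for 7 of 34 members, against 45.9% of all genes.

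Among the sensors, Ddx58 stood at 8.13, 8.54 and 8.44 in adjacent tissue and at 9.12, 9.77 and 9.78 in tumour. All 3 tumour arrays lay above all adjacent arrays, a difference of 1.19 (SE 0.37, adjusted p = 0.03, limma), or 2.28-fold. Leaving out 1 array ended the call in 5 of 6 cases, with adjusted p between 0.056 and 0.098 by limma. Ifih1 stood at 12.07, 12.36 and 12.28 in adjacent tissue and at 11.34, 11.48 and 11.37 in tumour. Every tumour array was lower, by 0.84 on average (log2 difference -0.84, SE 0.20, adjusted p = 0.0057, limma). Dhx58 (-0.27, SE 0.54) and Zbp1 (-0.21, SE 0.70), a sensor of left-handed nucleic acid, overlapped between the tissues.

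Of the transcription factors none passed. Irf7, the factor that amplifies type I interferon, stood at 10.15, 10.71 and 10.34 in adjacent tissue and at 9.26, 9.15 and 9.34 in tumour. The arrays did not overlap, but the difference of -1.15 (SE 0.46) had an adjusted p of 0.079 (limma). Stat2 (-0.18, SE 0.31), Irf9 (0.36, SE 0.43) and Irf1 (-0.45, SE 0.30) overlapped between the tissues.

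Antiviral effectors lay mostly lower in tumour, 9 of 11 below 0 with a median difference of -0.52, and 1 passed. Oasl1, a protein that limits Irf7 translation, stood at 10.84, 11.43 and 10.91 in adjacent tissue and at 9.25, 9.75 and 9.20 in tumour. No tumour array reached the adjacent range, and the difference was -1.66 (SE 0.36, adjusted p = 0.0038, limma), a 3.16-fold reduction. Oas1a, which makes the activator of RNase L, was lower on every tumour array without passing (-0.69, SE 0.29, adjusted p = 0.098, limma). Rsad2 (viperin), an inhibitor of viral replication, differed by -1.12 (SE 0.70), Oasl2 by -0.93 (SE 0.79), Ifit1 by -0.62 (SE 0.91), Mx1 by -0.52 (SE 0.72) and Ifit3 by -0.46 (SE 0.59). Oas2 and Mx2 differed by -0.12 and -0.01, Ifit2 by 0.90 (SE 0.75), and all of these overlapped between the tissues. Bst2 was higher on every tumour array, by 0.34 on average (SE 0.36), and did not pass. Of the ISG15 system and other induced genes, Usp18 went the other way at 7.66, 8.93 and 9.36 in adjacent tissue and 9.96, 11.18 and 11.98 in tumour. Its difference of 2.39 was the largest among the members, but its SE was 0.99 and its adjusted p 0.094 (limma). The transmembrane chaperone Rtp4 (-0.32), Xaf1 (-0.28), the ADP-ribosyltransferase Parp14 (-0.22) and Ifi35 (-0.11) lay near 0.

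The titles pair the tissues by animal, so a fit with the pair as a replicate block was run on the 6 double mutant arrays. It called 4 members higher, where 13.5% of all genes were called higher, namely Ddx58, Ifit2, Iigp1 and Usp18. It called 7 lower, where 13.7% of all genes were, namely Ifih1, Ifit1, Irf7, Oas1a, Oasl1, Oasl2 and Rsad2. The numbers that pair the pieces of animal 2 are those in the titles, and 2 of the 3 pairs share that animal, which the block counts as separate. With the arrays of an animal averaged before the fit, 0 members were higher and 1, Oasl1, was lower (adjusted p = 0.028, limma). Ddx58 (1.14) and Ifih1 (-0.82) then kept their direction without passing, at adjusted p of 0.15 and just above 0.05 by limma.

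The difference between tumour and adjacent tissue was higher in animal 2 than in animal 1 for all measured GTPases, antigen processing genes and chemokines. The gap between the animals was 1.36 to 1.84 for the GTPases, 0.89 to 1.61 for antigen processing, and 1.81 and 3.01 for the chemokines. The ISG15 system and other induced genes were also all higher in animal 2, but by only 0.10 (Rtp4) to 0.59 (Ifi35). The gap of the sensor Ddx58 was 0.29. Over all members the difference was higher in animal 2 for 22 of 34, and for 47.8% of all genes. In animal 1, with 1 array per tissue, 1 of 5 GTPases, 0 of 3 antigen processing genes and 0 of 2 chemokines were higher in tumour than in adjacent tissue. In animal 2, with 2 arrays per tissue, 5 of 5, 3 of 3 and 2 of 2 were higher. The median differences (log2) were -0.41 and 0.95 for the GTPases, -0.72 and 0.64 for antigen processing and -0.47 and 1.94 for the chemokines, in animals 1 and 2. For the ISG15 system and other induced genes they were -0.40 and -0.11, for the antiviral effectors -0.15 and -0.68, and for all genes -0.02 and 0.02. With 1 array per tissue from animal 1, this contrast between the animals was not tested.

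**Figure D3:**
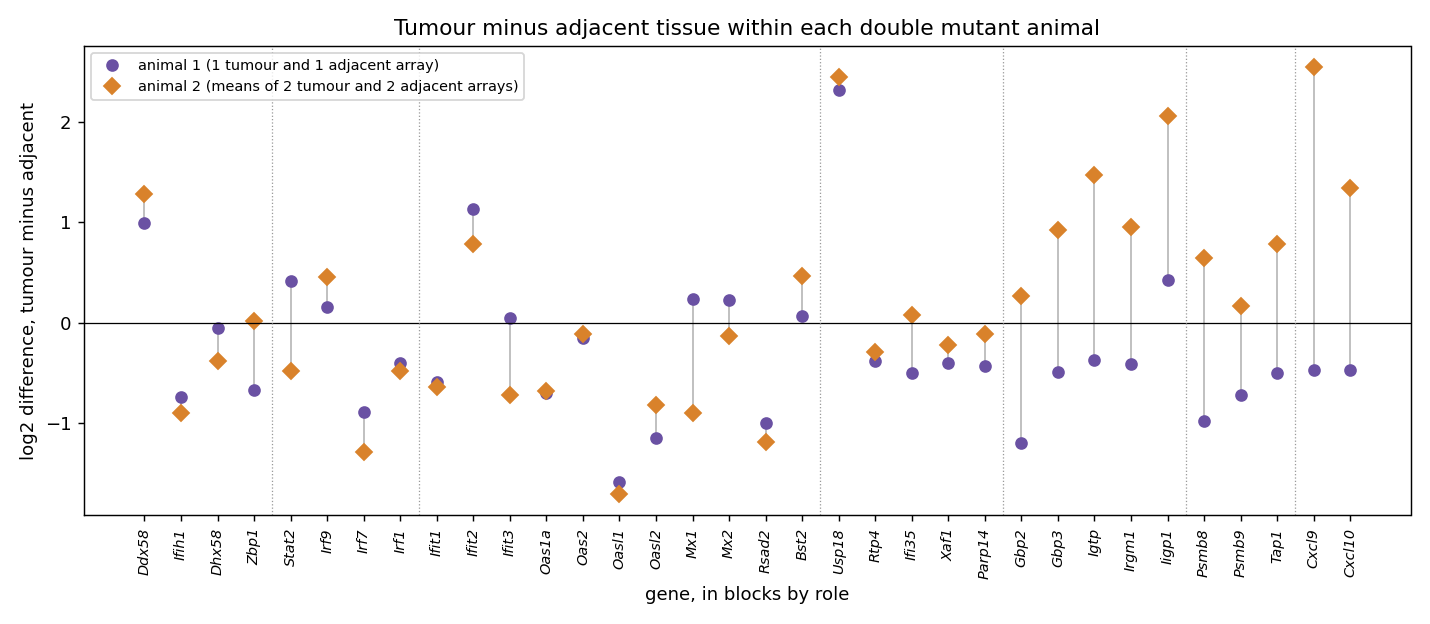
Log2 difference of tumour minus adjacent tissue (y axis) for 34 genes in blocks by role, for animal 1 (circles, 1 array per tissue) and animal 2 (diamonds, means of 2 arrays per tissue), joined by a line per gene. The diamonds lie above the circles for all GTPases, antigen processing genes and chemokines, and by less for the ISG15 system and other induced genes. Ddx58, Ifih1, Oasl1 and Usp18 have nearly the same difference in both animals.

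Cxcl9 showed the widest gap, with a tumour minus adjacent difference of -0.47 in animal 1 and 2.54 in animal 2. Its tumour arrays stood at 7.17, 10.64 and 10.90 and its adjacent arrays at 7.65, 7.84 and 8.63. Cxcl10 stood at 7.13, 9.24 and 9.48 in tumour and 7.60, 7.97 and 8.06 in adjacent tissue. For both chemokines the tumour of animal 1 was the lowest and those of animal 2 the highest of the 6 arrays. Iigp1 stood at 8.59, 11.31 and 11.41 in tumour (8.16, 9.11 and 9.50 in adjacent tissue), and Igtp, a regulator of such GTPases, at 9.82, 12.35 and 12.66 (10.19, 11.08 and 10.99). Psmb8, an immunoproteasome subunit, stood at 9.45, 11.46 and 11.76 in tumour, and Tap1, the peptide transporter, at 9.53, 11.48 and 11.60. The same split held for the guanylate binding proteins Gbp2 (9.30, 10.97 and 10.88) and Gbp3 (9.71, 11.42 and 11.46) and for Irgm1 (8.65, 10.43 and 10.43). As group differences these did not pass: Iigp1 1.51 (SE 0.96), Cxcl9 1.53 (SE 1.06), Igtp 0.86 (SE 0.80), Cxcl10 0.74 (SE 0.81), Irgm1 0.50 (SE 0.52), Gbp3 0.45 (SE 0.51), Tap1 0.35 (SE 0.55), Psmb8 0.10 (SE 0.52), Psmb9 -0.12 (SE 0.43) and Gbp2 -0.21 (SE 0.45).

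Marker levels of other cell types also differed between the tumours of the animals, some the same way and some the opposite way, and their part was not tested. Ifng stood at 4.72, 6.14 and 7.16 in tumour, low in animal 1 and high in animal 2, without a group difference past the threshold (0.85, SE 0.49, adjusted p = 0.23, limma). T and NK cell markers had a mean level of 6.54, 7.17 and 7.42 in tumour. Most of them were lowest in animal 1, but Cd2 and Prf1 were highest there, and Gzmb was nearly level (8.42, 8.57 and 8.44). Against adjacent tissue 1 of 13 rose and 1 fell, where 14.3% of all genes rose and 13.8% fell. Neutrophil markers stood at 7.95, 9.36 and 9.60, and 6 of 7 rose against adjacent tissue. B cell markers stood at 5.58, 6.34 and 6.35 in tumour, also lowest in animal 1. Smooth muscle markers went the opposite way, at 9.85 in animal 1 and 8.26 and 8.27 in animal 2. Between the tissues 9 of 9 smooth muscle markers fell (median difference -3.19), as did 6 of 7 B cell markers and 7 of 8 markers of absorptive colonocytes.

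Replicate 1 was the low array in both tissues. It came from animal 1, so animal, piece and array cannot be told apart. It was the lowest of the adjacent arrays for 33 of 34 members, where 36.8% of all genes were lowest, and the tumour of animal 1 was the lowest for 29 of 34, where 33.1% were. The mean of the members was -0.37, 0.34 and 0.29 in adjacent and -0.64, 0.41 and 0.55 in tumour arrays 1, 2 and 3.

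Each comparison with wild type shares the same 3 wild type arrays, whose spread it inherits, so the comparisons are not independent of each other. The fit uses a shared spread per gene over all arrays, so comparisons without wild type carry the wild type spread too. In adjacent tissue 0 of 34 members rose by limma (17.7% of all genes did) and 2 fell (10.1% of all genes did), and the median difference was -0.14, against 0.13 for all genes. Bst2 (tetherin), which holds budding virus at the cell surface, stood at 8.12 on all 3 adjacent arrays and at 9.48, 11.24 and 10.05 in wild type. The groups were apart, with a difference of -2.14 (SE 0.36, adjusted p = 0.0014, limma). Psmb9, another immunoproteasome subunit, stood at 9.02, 9.80 and 9.41 against 10.24, 11.72 and 10.22 in wild type, and fell by 1.32 (SE 0.43, adjusted p = 0.039, limma). Its call was lost without wild type array 2, without adjacent array 1 and without adjacent array 3, with adjusted p between 0.09 and 0.16 by limma. Psmb9 and Tap1 are divergent neighbours whose windows share 275 bases, and Tap1 differed by -0.09 (SE 0.55).

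In Olfm4 mutant colon 1 of 34 members fell (2.5% of all genes did) and 0 rose (5.42% did). That member was Bst2, at 8.86, 7.99 and 8.75, below every wild type array (-1.72, SE 0.36, adjusted p = 0.018, limma). Without Olfm4 mutant array 2 or array 3 its adjusted p was 0.082 and 0.052 (limma). The members lay below wild type for 31 of 34 genes, with a median of -0.75 against 0.06 for all genes, of which 58.9% lay above 0. Without wild type array 2 only 18 members lay below and 16 above.

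In APC mutant colon no member was called (limma, adjusted p of 0.05), and neither was any other gene (0% of all genes). At an unadjusted p below 0.05 there were 3 members, against 7.28% of all genes. The difference from wild type was below 0 for 33 of 34 members, with a median of -0.65 and of -0.01 for all genes, of which 48.5% lay above 0. Without wild type array 2 only 16 members lay below 0 and 18 above. Bst2 was 0.80 lower on average (log2 difference -0.80, SE 0.36, adjusted p = 0.67, limma).

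In tumour against wild type 1 member rose (29.3% of all genes did) and 6 fell (20.1% did). Ddx58 rose by 1.44 (SE 0.37, adjusted p = 0.006, limma). Oasl1 fell by 2.42 (SE 0.36, adjusted p = 0.00011), Irf7 by 1.81 (SE 0.46, adjusted p = 0.0051), Bst2 by 1.80 (SE 0.36, adjusted p = 0.0011) and Psmb9 by 1.44 (SE 0.43, adjusted p = 0.015), all by limma. The set also held Stat2, part of the type I interferon complex, which fell by 1.04 (SE 0.31, adjusted p = 0.015, limma), and Oas1a, which fell by 0.96 (SE 0.29, adjusted p = 0.014, limma). Leaving out 1 array ended the calls of Psmb9, Stat2 and Oas1a: without wild type array 2 their adjusted p was 0.066, 0.066 and 0.06 by limma. Without tumour array 1 it was 0.067 for Psmb9 and 0.054 for Oas1a, and without tumour array 2 it was 0.059 for Stat2.

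In adjacent tissue and tumour the sign of the median of the members turned with the wild type array left out. Without wild type array 1 the adjacent tissue had 8 members lower (9.53% of all genes) and a median of -0.93, and without wild type array 2 it had 2 higher (11.9%), 1 lower (7.8%) and a median of 0.55. The genes called higher were then Ifi35 and Ifih1. By the further probe sets of Ifi35, wild type arrays 1 and 3 overlapped both the adjacent and the tumour arrays. The brighter of these stood at 9.18 and 9.57 on wild type arrays 1 and 3 and at 9.11, 9.45 and 9.24 in adjacent tissue. For Olfm4 mutant colon 10 members were lower without array 1 (2.95% of all genes, median -1.33) and 1 without array 2 (0.451%, median -0.05). For APC mutant colon 2 members, Irf7 and Oasl1, were lower without array 1 (0.176% of all genes, median -1.26), and the median was 0.03 without array 2. For tumour 1 member was higher (27.8%) and 14 lower (18.8%) without array 1, with a median of -0.99. Without array 2 there were 7 higher (26.9%), namely Cxcl9, Ddx58, Ifi35, Ifit2, Igtp, Iigp1 and Usp18, and 3 lower (18.8%), with a median of 0.39. Bst2 was called lower in adjacent, Olfm4 mutant and tumour arrays with either wild type array left out, and Oasl1 and Irf7 in tumour.

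**Figure D4:**
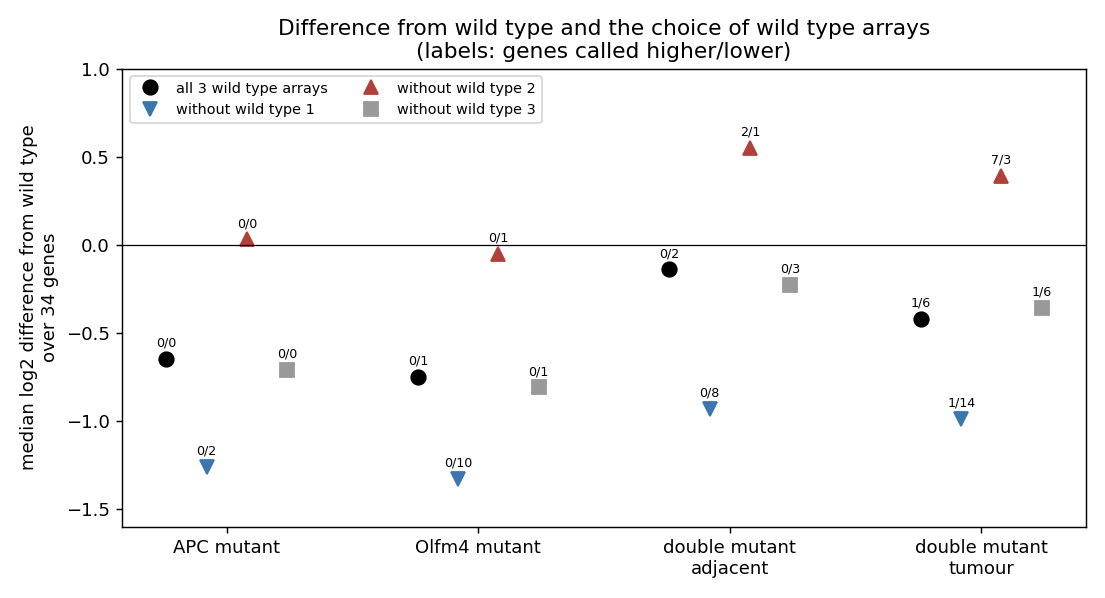
Median log2 difference from wild type over the 34 genes (y axis) in 4 groups, with all 3 wild type arrays and with each left out; the labels give the number of genes called higher and lower. Without wild type array 2 the medians lie between -0.05 and 0.55, and without array 1 between -1.33 and -0.93.

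Adjacent tissue was also set against each single mutant. Against APC mutant colon, adjacent tissue had 0 members higher (9.88% of all genes) and 1 lower (7.45%), namely Bst2, at 9.79, 9.42 and 9.17 in APC mutants, a difference of -1.34 (SE 0.36, adjusted p = 0.024, limma). Leaving out any array except APC mutant array 3 ended that call, with adjusted p between 0.055 and 0.09 by limma. Against Olfm4 mutant colon 0 of 34 members were called in adjacent tissue by limma (0.044% of all genes were), and 1 had an unadjusted p below 0.05 (16.3% of all genes). With only the compared groups fitted, which leaves the wild type arrays out, 7 members had one (19.3% of all genes). Against APC mutant colon these counts were 4 (33.1% of all genes) and 13 (31.8%). The median difference from Olfm4 mutant colon was 0.50, against 0.05 for all genes, and that from APC mutant colon was 0.45. Both signs turned with the bacterial RNA difference as a covariate, to -0.22 (10 members above 0 and 24 below) and -0.43 (5 above and 29 below). The interaction, which asks whether loss of Olfm4 acts differently with the APC mutation, called 0 of 34 members by limma (0% of all genes). In it 1 member had an unadjusted p below 0.05, against 10.4% of all genes. It was above 0 for all 34 members, against 55.7% of all genes, with a median of 1.08 against 0.04. It contains the wild type arrays: its median was 1.53 without wild type array 1 and 0.43 without array 2, and 0.44 with the covariate (28 members above 0).

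Bst2 was the member called lower than wild type in each of the 3 groups that lack Olfm4, in comparisons that share the wild type arrays. Its means were 8.54 ± 0.471 (SD, n = 3) for Olfm4 mutants, 8.12 ± 0.000898 for adjacent tissue and 8.46 ± 0.248 for tumours. It stood at 10.26 ± 0.898 in wild type and 9.46 ± 0.308 in APC mutant arrays. The adjacent arrays agree to the second decimal. With the bacterial RNA difference as a covariate, the Bst2 difference in tumour against wild type was 0.11 and in adjacent against wild type -0.79, and neither passed. Bst2 was not called with it in Olfm4 mutant against wild type either. Within the Olfm4 mutants, array 2 had the largest bacterial RNA difference (3.31, against 2.35 and 2.44) and the lowest Bst2 (7.99, against 8.86 and 8.75). In wild type, array 1 had the lowest of both (1.96 and 9.48). Whether Bst2 follows this measure was not tested.

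The wider pathway was described from a list of 76 further genes, of which 69 were measured. Between tumour and adjacent tissue 7 of 69 rose (14.3% of all genes did) and 9 fell (13.8% did), with a median difference of -0.02. Sting1, the adaptor of the cytoplasmic DNA sensor, stood at 10.85, 10.46 and 10.83 in adjacent tissue and at 12.67, 12.71 and 12.85 in tumour. It rose by 2.03 (SE 0.26, adjusted p = 9.5e-05, limma), a 4.08-fold change, and the tumour arrays of both animals lay within 0.18 of each other. Ifitm1, which blocks viral entry, rose by 1.83 (SE 0.21, adjusted p = 4.1e-05, limma), and Ifitm3 and Ifitm2 rose by 0.80 and 0.43. Ifi27l2a, a gene of the Ifi27 family, fell by 1.21 (SE 0.31, adjusted p = 0.011, limma).

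Of 9 receptor and kinase genes 2 rose and 2 fell in tumours. The type I receptor chains Ifnar1 and Ifnar2 rose by 0.57 (SE 0.13) and 0.95 (SE 0.17), with adjusted p of 0.0059 and 0.00084 (limma). Ifnar1 rose from the lowest group mean, 8.58 in adjacent tissue, to 9.14 in tumour, below its wild type mean of 9.58. Ifnar2 had means of 8.97 in adjacent tissue, 9.91 in tumour and 8.68 in wild type. The interferon gamma receptor chain Ifngr1 fell by 1.12 (SE 0.20, adjusted p = 0.00089, limma), and Il10rb, shared with the interferon lambda receptor, fell by 0.69. The other gamma chain, Ifngr2, had a mean of 9.14 in adjacent tissue and 9.09 in tumour (-0.04, SE 0.29), and the lambda chain Ifnlr1 had means of 7.71 and 7.66 (-0.05, SE 0.33), neither past the threshold. The factors Irf2 and Irf8 fell by 0.96 and 0.80, as did the immunoproteasome subunit Psmb10 by 0.83, the adaptor Ticam1 by 0.81, Ifi27 by 0.73 and the ligase Trim25 by 0.65. Of the interferon genes Ifnz rose by 0.64 (SE 0.20, adjusted p = 0.03, limma) from a low level of 6.02, and Ifnb1 lay between 4.34 and 4.94 on all 15 arrays.

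**Figure D5:**
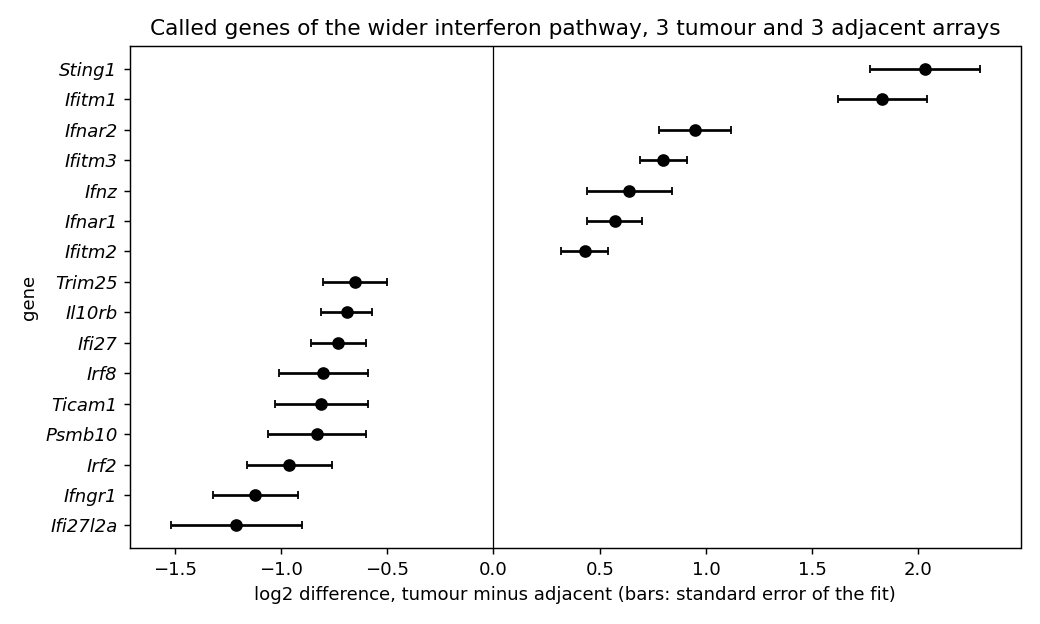
Log2 difference of tumour minus adjacent tissue (x axis) for the 16 genes of the wider interferon pathway that passed an adjusted p of 0.05, with the standard error of the fit as bars (3 arrays per tissue). Sting1 and Ifitm1 rose most, and Ifi27l2a and Ifngr1 fell most.

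Against wild type 3 of 69 pathway genes rose (17.7% of all genes did) and 7 fell (10.1% did) in adjacent tissue. Mavs, the adaptor of Ddx58 and Ifih1, stood at 10.53, 10.93 and 11.14 against 9.16, 9.36 and 9.27 (1.60, SE 0.28, adjusted p = 0.0017, limma). Ifngr2 fell by 1.77 (SE 0.29, adjusted p = 0.0011) and Ifi27l2a by 1.35 (SE 0.31, adjusted p = 0.0071), both by limma. Olfm4 mutant array 2, with the largest bacterial RNA difference of its group (3.31), had the highest Mavs (10.70) and the lowest Ifngr2 (9.45) there. Sting1 (10.06) and Ifitm1 (10.67) were highest on Olfm4 mutant array 3. The fit with that measure as a covariate was run on all genes, but its results for the pathway genes are not reported here. The measure nearly coincides with the groups, so its part in the pathway calls cannot be told apart from genotype and tissue. In Olfm4 mutant colon 3 fell (2.5% of all genes did), namely Irf8 by 0.75, Irf3 by 0.64 and Ifnar1 by 0.60, and 0 rose (5.42% did). In tumour against wild type 11 rose (29.3% of all genes did), led by Sting1 (2.74, SE 0.26) and Ifitm1 (2.62, SE 0.21), and 21 fell (20.1% did), led by Ifi27l2a (-2.56, SE 0.31) and Ifngr2 (-1.82, SE 0.29). Against APC mutant colon 3 rose (9.88% of all genes did) and 5 fell (7.45% did) in adjacent tissue, led by Mavs (1.68, SE 0.28) and Ifngr2 (-1.61, SE 0.29). In APC mutant against wild type, in adjacent against Olfm4 mutant and in the interaction 0 of 69 were called by limma, with 3, 12 and 8 at an unadjusted p below 0.05. Of all genes 7.28%, 16.3% and 10.4% were below that level in these comparisons.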

How the data were processed

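Per the labels, biotinylated cRNA from colon total RNA was read on 15 Affymetrix arrays of the Mouse430_2 type. The authors deposited log2 values. The submitters' processing notes name RMA and Partek 6.5. RMA gives all arrays a common distribution, so a shift of most genes one way is largely removed. A genome build is not given in the sources used here. Detection calls were not used here, and the number of arrays limits the precision.

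Of 45101 probe sets 34945 carried 1 symbol. The one with the highest mean over 15 arrays was kept per gene, without a filter on dim genes: 26 of 34 members lay above the median gene mean of 8.39. A limma model (version 3.58.1, under R 4.3.3) with 5 group means and an eBayes prior was fitted on every array, with 10 residual degrees of freedom. The 8 comparisons were each adjusted by Benjamini-Hochberg over 18193 genes, and a gene was called at an adjusted p of 0.05. The fit was tested on simulated data. SE is that of the fitted log2 difference.

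The members and lists were chosen with earlier results of these data known. Named one by one were called members, the members of each role with the widest and narrowest range of group means, the called pathway genes with the largest differences in each direction, and the interferon genes. Other members and pathway genes were named after their values were seen. Tumour and adjacent arrays were paired by animal and piece number in the titles. Deviations from the group means correlated at 0.281, -0.016 and 0.182 within pairs, at 0.126 and 0.124 between other arrays of animal 2, and from -0.259 to -0.088 between animals. Also run were the mean over the probe sets of a gene, genes above the median mean, cyclic loess, the spike-in difference as a covariate, only the groups compared, a trend and robust prior, a fold change of 1.5, arrays of an animal averaged, animal as a random block (correlation 0.35), the replicate block and each array left out.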

Additional observations from a re-analysis of the deposited data

How the results depend on the processing

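Counts of members called are given as higher and lower. In tumour against adjacent tissue (1 and 2) they were 4 and 7 with the replicate block, 2 and 4 both with only the groups compared and with animal as a random block, 0 and 1 both with the spike-in covariate and with arrays of an animal averaged, and 0 higher among genes above the median mean, which leaves out Ddx58. In adjacent against wild type (0 and 2), 0 were lower with the covariate and 1 with only the groups compared or with averaged arrays. In Olfm4 mutant against wild type (0 and 1), 2 were lower by the mean of all probe sets and 0 with the covariate or only the groups compared. In tumour against wild type (1 and 6) the covariate left 0 and 0, and genes above the median mean 0 higher. The covariate thinned the results of all genes as well. At an unadjusted p below 0.05 by limma stood 55.3% of all genes in tumour against wild type, and 7.64% with the covariate. These shares were 39.1% and 3.4% in adjacent against wild type, and 38.2% and 26% in tumour against adjacent tissue. The last share was 40.5% with only the groups compared, 45% with the random block and 30% with averaged arrays. In adjacent against APC mutant (0 and 1), only the groups compared gave 2 and 2, and 0 were lower with the covariate or averaged arrays. Leaving out 1 array at a time gave 0 to 1 higher and 2 lower for tumour against adjacent, 0 to 2 higher and 1 to 8 lower for adjacent against wild type, 0 to 10 lower for Olfm4 mutant, 0 to 2 lower for APC mutant, 1 to 7 higher and 3 to 14 lower for tumour against wild type, and 0 to 1 lower for adjacent against APC mutant.

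Of 14 calls of single members the covariate kept 1 (Ifih1 in tumour against adjacent, -1.19), 11 were lost in the same direction and 2 reversed, both in tumour against wild type: Ddx58 to -0.23 and Bst2 to 0.11. The loss was not particular to the members, as the shares of all genes given above fell too. The covariate nearly coincides with the groups, from 2.05 ± 0.0798 (SD, n = 3) in wild type to 4.98 ± 0.247 in tumour, so its part cannot be told apart from genotype and tissue. With it the median of the members turned from 0.50 to -0.22 in adjacent against Olfm4 mutant and from 0.45 to -0.43 in adjacent against APC mutant, and moved to -1.26 and -1.48 in adjacent and tumour against wild type. Cyclic loess, the mean of all probe sets, the trend and robust prior, the 1.5-fold threshold and animal as a random block each kept all 14 calls. Averaging the arrays of an animal kept 10, and fitting only the groups compared kept 9. Precision is limited by 3 arrays per group, 2 animals in the double mutants, and the wild type spread.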

Other observations

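Of the interferon genes themselves, Ifna1 stood at 5.61, 6.04 and 6.08 on wild type arrays 1, 2 and 3, at 6.95, 6.21 and 6.30 in adjacent tissue and at 6.52, 6.91 and 6.56 in tumour. It rose in tumour against wild type by 0.75 (SE 0.21, adjusted p = 0.0087, limma) and in adjacent tissue against APC mutant colon by 0.78 (SE 0.21, adjusted p = 0.023, limma). Interferon alpha genes are near-identical copies, and a probe set can match several of them. Socs3, an inhibitor of cytokine signalling, rose by 2.24 (SE 0.61, adjusted p = 0.0086, limma) in tumour against wild type, and Socs1 lay between 5.30 and 6.23 on all 15 arrays. Cgas, the DNA sensor upstream of Sting1, rose by 1.26 in tumour against wild type (SE 0.29, adjusted p = 0.0028, limma).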
